A study of Mus musculus with 2 samples.

Results

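Of the 37309 genes counted in cultured intestinal subepithelial myofibroblasts (ISEMFs), 10 were taken by gene symbol as the core of the Notch pathway: the receptors Notch1, Notch2, Notch3 and Notch4, the ligands Jag1, Jag2, Dll1 and Dll4, and the target genes Hes1 and Hey1. All 10 symbols matched a single gene. ISEMFs are the contractile stromal cells that lie beneath the epithelium of the intestinal crypt. RNA sequencing was carried out on 1 library of supportive ISEMFs, grown from the small intestine of 5-day-old C57BL/6 neonates, and on 1 library of non-supportive ISEMFs, grown in the same way from 2-month-old adult C57BL/6 mice. Supportive cells let crypts grow into enteroids without added R-spondin1, which the non-supportive cells did only weakly, and the libraries were sequenced to look for the factors behind that difference. Both populations were wild type, and both were expanded in culture medium with serum, insulin, transferrin and epidermal growth factor. The number of mice behind a library and its culture passage are not stated in the sources used here. Names in the deposited data carry the tag P16 for the supportive and P3 for the non-supportive library, and the sources do not say what the tags mean. If they mark time in culture, it differed between the libraries. Age, isolation, time in culture and support of crypts cannot be told apart.

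Notch receptors sit in the cell membrane and bind ligands of the Jagged and Delta-like families on a neighboring cell. Binding lets an ADAM protease and then the gamma-secretase complex cut the receptor, and the freed intracellular part enters the nucleus, where it joins Rbpj and Mastermind proteins and switches on genes of the Hes and Hey repressor families. In the crypt epithelium the pathway is known for holding progenitors back from the secretory lineages, and in blood vessels for signaling between endothelium and the mural cells around it.

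Levels are given as reads and as RPKM, the reads scaled to the length of a gene's exons and to the size of the library. The supportive library had 50674472 reads on genes and the non-supportive library 49615497, of which the 10 Notch genes took 17731 and 17911. Each population was sequenced once, so the differences below have no replicate check and no p-value. Every interval is a 95% exact interval (Poisson for a level, Clopper-Pearson for a ratio of reads) and covers only the counting error of these libraries. Because these are bulk cultures, a lower level from fewer cells of a type and one from less RNA per cell cannot be told apart. Of those reads, 13.5% in supportive and 7.13% in non-supportive ISEMFs were mitochondrial ribosomal RNA.

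The myofibroblast label was checked against the markers Acta2, Vim, Tagln, Myl9 and Des. The first 4 stood at 206 to 908 RPKM in supportive and 360 to 1410 RPKM in non-supportive ISEMFs, while Des, the desmin of muscle, was at 0.575 and 3.40 RPKM. The cultures differed in other markers. The 8 macrophage markers summed to 6.86 RPKM in supportive and 123 RPKM in non-supportive ISEMFs. All 7 that reached an RPKM of 1 were over 2-fold lower in supportive cells, and Ptprc, Emr1, Tyrobp and Itgam had 0 reads there. Lyz2 was at 6.31 and 72.7 RPKM, Cd68 at 0.449 and 6.48 RPKM, and Fcer1g at 0.0525 and 6.97 RPKM.

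A gene was counted as different when its RPKM was 1 or more in either library and its log2 ratio of supportive over non-supportive, with 0.1 added to each RPKM, was at least 1 in size, which is 2-fold. Of the 10 Notch genes, 5 reached that level (Notch2, Notch3, Jag1, Hes1 and Hey1). Notch3 was higher in supportive ISEMFs, Jag1 was lower, and the other 3 were within 2-fold. Among all 10086 genes that reached the level, 18.3% were past 2-fold, 9.01% higher and 9.27% lower in supportive cells, so 2 of 5 is a count too small to set apart from that background. The median log2 ratio was 0.29 over all 10 Notch genes and 0.72 over the 5, beside -0.07 over the 10086. Notch3 entered the 5 only through the supportive library, where it was high, so its passing that filter adds nothing to the count. The counting interval left out a ratio of 1 for all 5, as it did for 82.3% of the 10086 genes at this depth. At a 4-fold threshold Notch3 was the 1 gene left, against a background of 6.53%, and with no minimum RPKM Notch1 joined Notch3 and Jag1, against 9.81% of all genes.

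**Figure D1:**
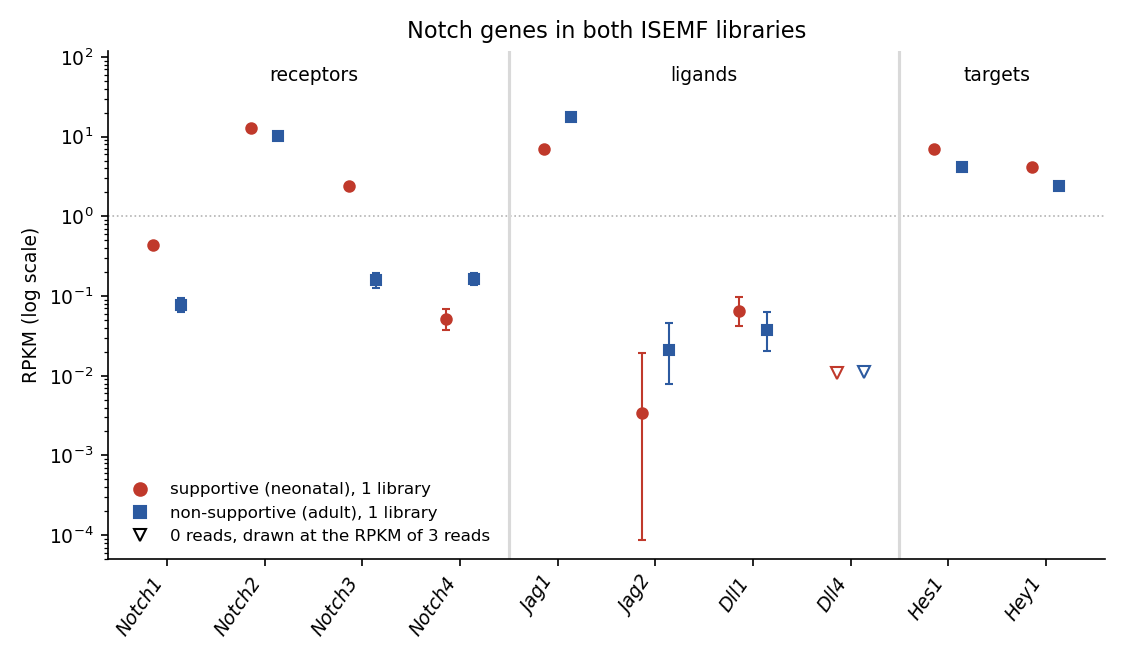
RPKM on a log scale of the 10 Notch genes in the supportive (red circles) and non-supportive (blue squares) library, with 95% exact Poisson bars and a dotted line at an RPKM of 1. Notch2, Jag1, Hes1 and Hey1 lay above 1 in both libraries, Notch3 lay at 2.38 and 0.158, and Dll4, with 0 reads, is drawn as open triangles at the RPKM that 3 reads would give.

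Notch2 was the receptor with the most RNA in both cultures. Its gene lies at chr3:97817461-97954290 (mm9, plus strand). It had 10199 reads in supportive and 7959 in non-supportive ISEMFs, or 12.9 RPKM (12.7 to 13.2) and 10.4 RPKM (10.1 to 10.6). The intervals did not overlap, yet the log2 ratio was only 0.31, 1.25-fold higher in supportive cells (1.21 to 1.28). Among 22379 protein-coding genes Notch2 ranked 1795 and 2385 by RPKM.

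Notch3, the receptor best known from vascular smooth muscle and pericytes, had the largest ratio of the 10 genes. The gene lies at chr17:32257765-32303825 (mm9, minus strand). There were 1369 reads in supportive and 88 in non-supportive ISEMFs, or 2.38 RPKM (2.26 to 2.51) and 0.158 RPKM (0.126 to 0.194). Notch3 was thus present at a moderate level in one culture and at a trace level in the other. The log2 ratio was 3.27, and the ratio of RPKM itself was 15.1-fold higher in supportive cells (12.18 to 18.98). Its rank among protein-coding genes was 6350 in supportive and 11570 in non-supportive ISEMFs. The exons of Notch3 share 488 bases with the annotated gene Gm17276, and reads that fell on more than 1 gene were left out of the counts.

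The promoter of Notch3 is shown because it is the member with the largest ratio. RefSeq promoter windows (GRCm38.p6, 250 bases before to 50 after a start site) were searched on both strands for TGGGAA, the core of the sequence that Rbpj binds, and 8 of the 10 genes, all but Hes1 and Hey1, matched a window by symbol. Their 9 windows held no TGGGAA, beside 25.6% of all 32851 windows in the table that held it. These letters are absent from 300 bases only, which says nothing of binding elsewhere. The Notch3 window lies at chr17:32166841-32167140 on the minus strand, is 70.0% G or C, and has no capitals because no motif was found.
Notch3: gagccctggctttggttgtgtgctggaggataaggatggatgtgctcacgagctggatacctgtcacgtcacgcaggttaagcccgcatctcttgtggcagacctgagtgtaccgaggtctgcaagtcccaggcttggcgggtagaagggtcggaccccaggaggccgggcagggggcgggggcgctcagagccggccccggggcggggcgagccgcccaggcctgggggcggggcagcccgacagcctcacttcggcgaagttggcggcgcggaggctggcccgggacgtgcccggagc

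Notch1 and Notch4 were low in both cultures and went in opposite directions. Notch1, the receptor most studied in stem and progenitor cells, lies at chr2:26313423-26372183 (mm9, minus strand) and had 625 reads in supportive and 106 in non-supportive ISEMFs, or 0.444 RPKM (0.410 to 0.480) and 0.0774 RPKM (0.0634 to 0.0937). It was 5.73-fold higher in supportive cells (4.66 to 7.11), with a log2 ratio of 1.62, at a level below the RPKM of 1 that a call required. Its RPKM also depends on the length used. The deposited length is 19710 bases, the longest coding transcript has 9488, and with that length the levels would be 0.922 and 0.161 RPKM, still below 1. The exons of Notch1 share 1482 bases with 0610009E02Rik and Gm13568.

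Notch4, a receptor known mainly from endothelium, lies at chr17:34701213-34725448 (mm9, plus strand). It had 43 reads in supportive and 135 in non-supportive ISEMFs, or 0.0512 RPKM (0.0370 to 0.0689) and 0.165 RPKM (0.139 to 0.196). The intervals were apart, with Notch4 3.23-fold lower in supportive cells (2.28 to 4.67), but both levels were under an RPKM of 1 and the log2 ratio after adding 0.1 was -0.81.

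Read within each library, which removes any error in library size, the mix of receptors differed. Notch2 made 81.8% of the summed RPKM of the 4 receptors in supportive and 96.3% in non-supportive ISEMFs. Notch3 made 15.1% and 1.46%, Notch1 2.81% and 0.720%, and Notch4 0.324% and 1.54%. Counted as reads, not per length, Notch1 made 5.11% and 1.28% and Notch3 11.2% and 1.06%, so the small shares depend on the length used. Relative to Notch2, Notch3 was 12.1-fold higher in supportive cells (9.76 to 15.3) and Notch1 4.60-fold higher (3.73 to 5.72), while Notch4 was 4.02-fold lower (2.83 to 5.82). Notch3 also moved further than Notch1, by 2.64-fold (1.94 to 3.60). In supportive cells the minor receptors ran Notch3, Notch1, Notch4, each apart from the next, with the deposited length and with that of the longest coding transcript. In non-supportive cells their order depended on the length. With the deposited length Notch4 and Notch3 were level within their intervals and Notch1 lay below both, while with the transcript length Notch4 (0.295 RPKM) lay above Notch1 (0.161 RPKM) and Notch3 (0.158 RPKM), which were level.

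**Figure D2:**
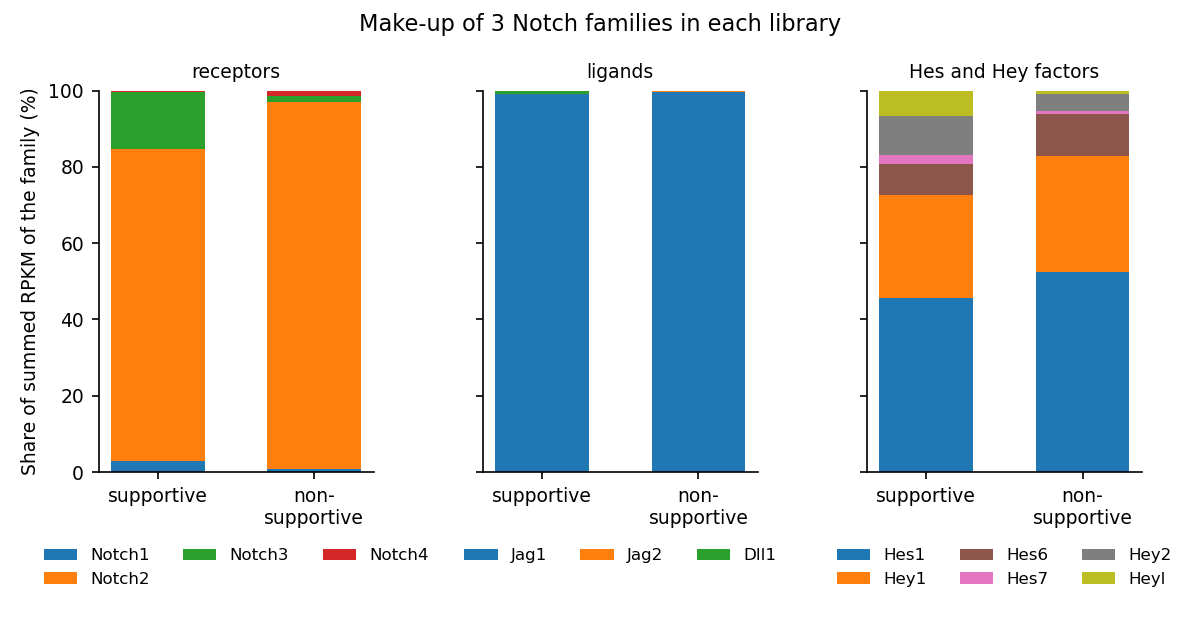
Share of the summed RPKM (percent) that each gene took of its family in each library, for the receptors, the ligands Jag1, Jag2, Dll1 and Dll4, and the Hes and Hey factors. Genes under 0.1% in both libraries are left out. Notch3 took 15.1% of the receptors in supportive and 1.46% in non-supportive cells, and Jag1 took nearly all of the ligands in both.

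Jag1 was the ligand of these cultures and the Notch gene past 2-fold that was lower in supportive ISEMFs. Jagged1, its product, is a membrane ligand that arteries and smooth muscle are known to use. The gene lies at chr2:136907192-136942380 (mm9, minus strand). It had 3377 reads in supportive and 8395 in non-supportive ISEMFs, or 6.93 RPKM (6.70 to 7.17) and 17.7 RPKM (17.4 to 18.1). The log2 ratio was -1.34, 2.56-fold lower in supportive cells (2.46 to 2.66). Jag1 ranked 3245 among protein-coding genes in supportive and 1456 in non-supportive cells, where it was the most abundant of the 10 Notch genes.

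The Jag1 promoter window (RefSeq, GRCm38.p6, chr2:137116471-137116770, minus strand, 55.7% G or C) is shown as that of the main ligand. It held no TGGGAA either.
Jag1: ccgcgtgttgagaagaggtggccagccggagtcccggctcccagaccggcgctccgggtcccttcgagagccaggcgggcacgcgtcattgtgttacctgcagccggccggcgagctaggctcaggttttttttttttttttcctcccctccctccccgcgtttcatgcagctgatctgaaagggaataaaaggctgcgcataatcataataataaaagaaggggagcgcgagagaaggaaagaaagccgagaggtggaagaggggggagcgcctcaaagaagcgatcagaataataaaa

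The other ligands were at or near the limit of detection. Dll1, a Delta-like ligand that Paneth and secretory precursor cells present in the crypt, lies at chr17:15504318-15513836 (mm9, minus strand) and had 25 reads in supportive and 14 in non-supportive ISEMFs, or 0.0655 and 0.0377 RPKM. The ratio of 1.74 had an interval of 0.868 to 3.61, so no difference was detectable at this depth. Jag2, the second Jagged ligand, lies at chr12:114146801-114167706 (mm9, minus strand) and had 1 read against 6, a ratio of 6.17 lower in supportive cells with an interval of 0.749 to 284. Dll4, the Delta-like ligand of sprouting endothelium and of crypt Paneth cells, lies at chr2:119151520-119161698 (mm9, plus strand) and had 0 reads in both libraries, which allows up to 3 reads, or 0.0107 RPKM in supportive and 0.0110 RPKM in non-supportive ISEMFs. Exons of Dll1 share 867 bases with A930024N18Rik, and those of Dll4 share 214 bases with Gm14207. Jag1 made 99.0% of the summed ligand RPKM in supportive and 99.7% in non-supportive cells.

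Ligand and receptor totals went opposite ways. The 4 receptors summed to 15.8 RPKM in supportive and 10.8 RPKM in non-supportive ISEMFs, and the 4 ligands to 7.004 and 17.8 RPKM. The ratio of ligand to receptor message was therefore 0.444 in supportive and 1.65 in non-supportive cells. With the length of the longest coding transcript of each gene, this ratio was 0.502 and 1.88. Its main term, Jag1 over Notch2, was 3.19-fold lower in supportive cells (3.03 to 3.35), a comparison within each library that its size cannot affect.

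The target genes Hes1 and Hey1 were present in both cultures and somewhat higher in supportive ISEMFs, within 2-fold. Hes1, the repressor that blocks secretory fate in the crypt, lies at chr16:30064470-30067882 (mm9, plus strand). It had 1434 reads in supportive and 836 in non-supportive ISEMFs, or 7.02 RPKM (6.66 to 7.39) and 4.21 RPKM (3.93 to 4.50). The log2 ratio was 0.72, 1.67-fold higher (1.53 to 1.82). Hey1, a related repressor of vessels and mesenchyme, lies at chr3:8663362-8667039 (mm9, minus strand) and had 658 and 372 reads, or 4.18 RPKM (3.87 to 4.51) and 2.43 RPKM (2.19 to 2.69). Its log2 ratio was 0.76, 1.72-fold higher (1.51 to 1.96). Among protein-coding genes Hes1 ranked 3215 and 4643, and Hey1 4713 and 6231. The genes kept nearly the same proportion to each other, since the Hes1 to Hey1 ratio in supportive cells was 0.970 of that in non-supportive cells (0.829 to 1.13).

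By level, with the deposited lengths, the supportive culture ran Notch2, then Hes1 and Jag1 with overlapping intervals, then Hey1, Notch3 and Notch1, each apart from its neighbor. Below them Dll1 and Notch4 overlapped, as did Jag2 and Dll4. The non-supportive culture ran Jag1, Notch2, Hes1 and Hey1, each apart, then Notch4 and Notch3 together, then Notch1, and last Dll1, Jag2 and Dll4, each overlapping the next. Hes1 stood at 1.01 of the Jag1 level in supportive and 0.237 of it in non-supportive cells, a ratio 4.26-fold higher in supportive cells (3.88 to 4.69). The place of Hes1 depends on its length, which is 2860 bases as deposited and 1468 in the longest coding transcript. With transcript lengths Hes1 was at 13.7 RPKM in supportive and 8.20 RPKM in non-supportive cells, level with Notch2 and above Jag1 in the supportive culture, and at 1.62 and 0.381 of the Jag1 level. The fold between the libraries does not change with the length.

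The remaining Hes and Hey genes, which are not among the 10, were read beside Hes1 and Hey1. Hey2, a Hey repressor of arteries and heart, had 287 reads in supportive and 65 in non-supportive ISEMFs, or 1.57 and 0.367 RPKM, 4.29-fold higher (3.27 to 5.71). Heyl, the third Hey gene, had 377 and 24 reads, or 1.03 and 0.0672 RPKM, 15.3-fold higher (10.1 to 24.1). Relative to Hey1, Hey2 was 2.49-fold higher in supportive cells (1.84 to 3.42) and Heyl 8.87-fold higher (5.74 to 14.3), so the Hey genes did not move by one common factor. Hes6, which is known to act against Hes1, was at 1.23 and 0.879 RPKM with a log2 ratio of 0.44. Hes7, the somite clock gene, had 48 and 8 reads and stayed under an RPKM of 1. Hes2 and Hes5 had 0 reads in both libraries, and Hes3 had 0 and 1. Summed over the Hes and Hey genes, supportive ISEMFs had 15.4 RPKM and non-supportive 8.03 RPKM, with Hes1 making 45.6% and 52.4% of it and Heyl 6.67% and 0.838%.

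Hey2 is shown as the Hey gene past 2-fold that has a promoter window (RefSeq, GRCm38.p6, chr10:30842734-30843033, minus strand, 72.0% G or C). It held TGGGAA 2 times, with the capitals marking the copy at -207 bases from the start site on the opposite strand, where it reads TTCCCA, and the copy at -3 on the same strand. Of the 8 genes higher in supportive cells that have a window, among the 10 and the wider pathway, 3 held the motif (Gxylt2, Hey2 and Lfng), beside 28.3% of all 27025 genes with a window. Of the 3 lower genes with a window, 0 held it. These counts are too small to set apart from that background. A match is a description of letters and not evidence of binding.
Hey2: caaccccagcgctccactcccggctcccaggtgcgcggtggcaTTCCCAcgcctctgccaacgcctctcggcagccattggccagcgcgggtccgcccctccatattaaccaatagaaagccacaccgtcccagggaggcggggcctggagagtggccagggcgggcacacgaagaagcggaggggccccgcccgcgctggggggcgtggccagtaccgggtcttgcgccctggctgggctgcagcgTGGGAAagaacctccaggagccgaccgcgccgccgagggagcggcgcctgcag

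Beyond these, 81 further genes of the Notch pathway were listed by role, from other ligands to targets. Of the 81, 59 reached an RPKM of 1 in either library, 13 were over 2-fold higher in supportive ISEMFs, 2 were over 2-fold lower and 44 were within 2-fold. That is 22.0% higher and 3.39% lower, beside 9.01% and 9.27% of all genes that reached an RPKM of 1. The median log2 ratio was -0.05, close to the -0.07 of all genes, so most of the pathway sat with the rest of the transcriptome. Of the 13, 8 were below an RPKM of 1 in non-supportive cells and passed the filter only through the supportive library. By the counting interval alone, 24 of the 59 were higher and 24 lower.

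Genes that act on the ligand side included Nov and Mfap5, secreted proteins reported to bind Notch1, and Neurl1b, a ubiquitin ligase that sends ligands into endocytosis. Neurl1b had 1349 reads in supportive and 63 in non-supportive ISEMFs, 3.05 and 0.147 RPKM, a 20.8-fold higher level (16.2 to 27.2). Mfap5 was at 6.26 and 2.76 RPKM, 2.27-fold higher (2.10 to 2.45), and Nov at 1.01 and 0.261 RPKM, 3.87-fold higher (2.84 to 5.35). Mib1, the main ubiquitin ligase of Notch ligands, had the highest level of its group at 13.6 and 20.1 RPKM, within 2-fold. The other 6 noncanonical ligands, Dlk1 and Dll3 among them, did not reach an RPKM of 1.

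The machinery that cuts the receptor differed little. All 7 cleavage genes that reached an RPKM of 1, of 10 listed, were within 2-fold, with log2 ratios from -0.85 to 0.13. Adam10, the protease of the first ligand-induced cut, was at 22.4 RPKM in supportive and 28.6 RPKM in non-supportive ISEMFs, a log2 ratio of -0.35.

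Among the enzymes that attach sugars to the receptor, 2 were higher and 1 lower of 7 that reached an RPKM of 1. Gxylt2, a xylosyltransferase that extends O-glucose on the receptor's EGF repeats, had 2319 reads in supportive and 36 in non-supportive ISEMFs, or 12.1 and 0.194 RPKM. At 62.6-fold higher (45.1 to 89.6) it had the largest ratio of the listed pathway genes past 2-fold. Its paralog Gxylt1 went the other way, at 6.00 and 13.1 RPKM, 2.18-fold lower. Lfng, a Fringe enzyme that alters how receptors respond to Delta-like and Jagged ligands, was at 1.13 and 0.416 RPKM, 2.71-fold higher (2.03 to 3.65). The enzyme with the highest mean level, listed in the files as A130022J15Rik (Eogt), was within 2-fold.

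In the nucleus, Rbpj, the DNA-binding partner of every Notch receptor, was at 8.12 and 13.3 RPKM with a log2 ratio of -0.70. Crebbp, the acetyltransferase with the highest mean level of the complex, was nearly level at 13.6 and 13.1 RPKM. Kat2b, another acetyltransferase, was 3.06-fold higher in supportive cells at 2.57 and 0.841 RPKM. Of 12 corepressor genes that reached an RPKM of 1, Tle2, a Groucho corepressor that Hes proteins recruit, was 9.39-fold higher at 1.28 and 0.136 RPKM, and the other 11 were within 2-fold. Hdac2 had the highest level of these at 40.4 and 46.9 RPKM.

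Among regulators of receptor turnover, Dtx3l and Dtx3, of the Deltex ubiquitin ligase family, were higher in supportive ISEMFs. Dtx3l was at 5.13 and 1.46 RPKM, 3.51-fold higher, and Dtx3 at 2.33 and 1.10 RPKM, 2.10-fold higher with an interval of 1.81 to 2.45 that reaches below 2-fold. Dtx4, of the same family, went the other way at 0.553 and 1.18 RPKM, 2.13-fold lower in supportive cells (1.81 to 2.51). With 0.1 added to each RPKM its log2 ratio was -0.97, so it was not counted as past 2-fold. Dtx1 and Dtx2 stayed under an RPKM of 1. Itch, a ubiquitin ligase that targets Notch, had the highest level of the group at 7.92 and 10.7 RPKM, within 2-fold.

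Other reported targets split. Pdgfrb, the receptor that marks pericytes and fibroblasts and is known to respond to Notch3, was at 28.1 and 7.67 RPKM, 3.66-fold higher in supportive cells, and Snai2, a mesenchymal repressor, at 59.0 and 19.8 RPKM, 2.98-fold higher. Efnb2, the arterial ephrin, was at 8.35 and 24.4 RPKM, 2.93-fold lower. Ccnd1, the D-type cyclin with the highest level of the group, was at 175 and 146 RPKM with a log2 ratio of 0.26. Nrarp, a feedback inhibitor of the pathway, had 33 reads in supportive and 4 in non-supportive ISEMFs, 8.02-fold higher (2.85 to 31.2), at levels under an RPKM of 1. Myc, Cdkn1a and Bcl2 were lower in supportive cells within 2-fold, at 2.76 and 5.21, 56.5 and 97.6, and 9.33 and 11.8 RPKM. The median log2 ratio of the 7 targets in this group that reached an RPKM of 1 was -0.34. The targets thus held genes past 2-fold in both directions.

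**Figure D3:**
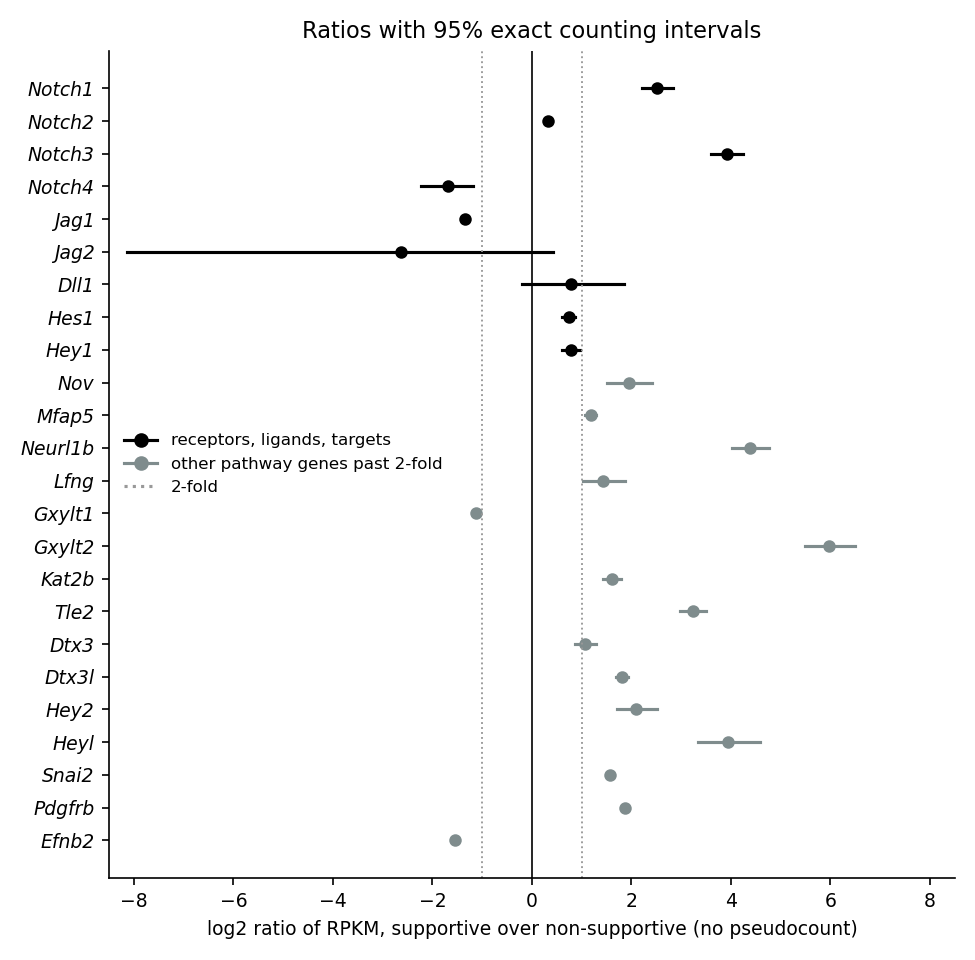
Log2 ratio of RPKM, supportive over non-supportive and with nothing added, of the 9 Notch genes with reads in both libraries (black) and of the 15 listed pathway genes past 2-fold (gray), with 95% exact counting intervals and dotted lines at 2-fold. Gxylt2 lies furthest to the right at 62.6-fold, Notch3 at 15.1-fold, and the interval of Jag2, with 1 and 6 reads, spans 0.

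**Figure D4:**
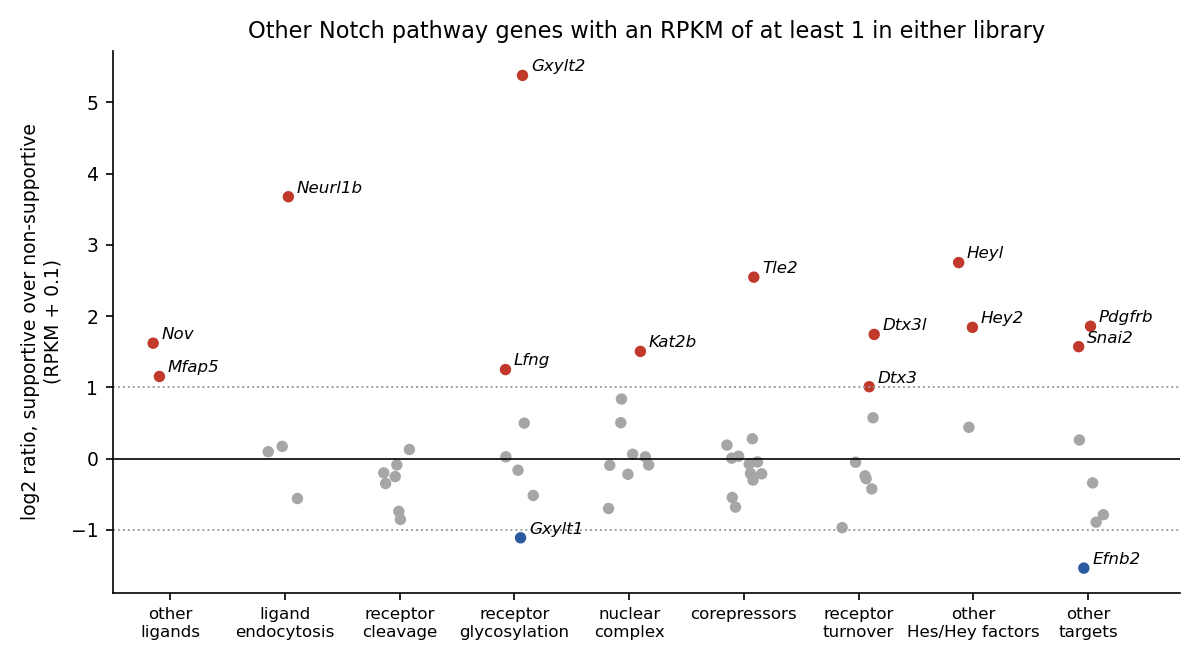
Log2 ratio, supportive over non-supportive with 0.1 added to each RPKM, of the 59 listed pathway genes that reached an RPKM of 1, by role, with genes over 2-fold higher in red, lower in blue and the rest in gray. The 13 higher genes are spread over 8 of the 9 roles, and the cleavage genes all lie between -0.85 and 0.13.

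Because Notch genes differ between cell types, markers of the types that could share the cultures were read beside them. Of 8 endothelial markers, Erg alone reached an RPKM of 1, with 2761 reads in supportive and 8 in non-supportive ISEMFs, and the list summed to 4.66 and 0.252 RPKM. Pecam1 had 0 reads in supportive and 8 in non-supportive cells, Cdh5 0 and 7, Emcn 10 and 13, and Tie1 and Cldn5 0 in both. The vessel receptor genes Kdr (2 and 88 reads) and Tek (65 and 2 reads) went in opposite directions, each under an RPKM of 1. Pecam1, Cdh5 and Kdr had more reads in non-supportive cells, as Notch4 did, and Erg and Tek more in supportive cells, as Notch1 and Notch3 did. With 1 library of each population, a shared direction does not link genes to each other. The part of these markers in the Notch differences was not tested.

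Mural cell markers summed to 35.0 RPKM in supportive and 50.4 RPKM in non-supportive ISEMFs. Of 6, 3 reached an RPKM of 1, Rgs5 was over 2-fold lower in supportive cells at 0.578 and 2.37 RPKM, and Cspg4 and Mcam were within 2-fold at 4.44 and 3.04 RPKM and at 29.7 and 44.7 RPKM. The sum was carried by Mcam. Kcnj8 had 23 and 30 reads, Abcc9 8 and 42, and Higd1b 5 and 2, and their part in the Notch3 difference was not tested. Smooth muscle markers, beside Jag1, summed to 413 and 668 RPKM, and of 6 that reached an RPKM of 1, Myh11 and Cnn1 were over 2-fold lower in supportive cells at 26.3 and 108 RPKM and at 78.6 and 187 RPKM. Actg2, Lmod1 and Synpo2 were lower within 2-fold, at 247 and 292 RPKM, 49.0 and 67.4 RPKM, and 6.71 and 10.2 RPKM. Smtn was higher within 2-fold at 4.88 and 3.16 RPKM, and Myocd, under an RPKM of 1, was higher at 0.635 and 0.0409 RPKM. Myh11, Cnn1 and the macrophage genes were lower in supportive cells together with Jag1. Their part in the Jag1 difference was not tested.

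The epithelial list held 10 markers, of which Lgr5, the crypt stem cell receptor, had 7.22 and 0.00443 RPKM, and Krt20 0.0799 and 3.13 RPKM. Cdh1, the epithelial cadherin, had 159 and 18 reads, Muc2 27 and 3, Vil1 7 and 8, and Epcam 0 and 5, all under an RPKM of 1, and Cdx1, Cdx2, Chga and Atoh1 had 0 in both libraries. Of 7 enteric neuron and glia markers, S100b alone reached an RPKM of 1, at 6.69 and 0.116 RPKM, and Sox10 had 0 reads in both.

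**Figure D5:**
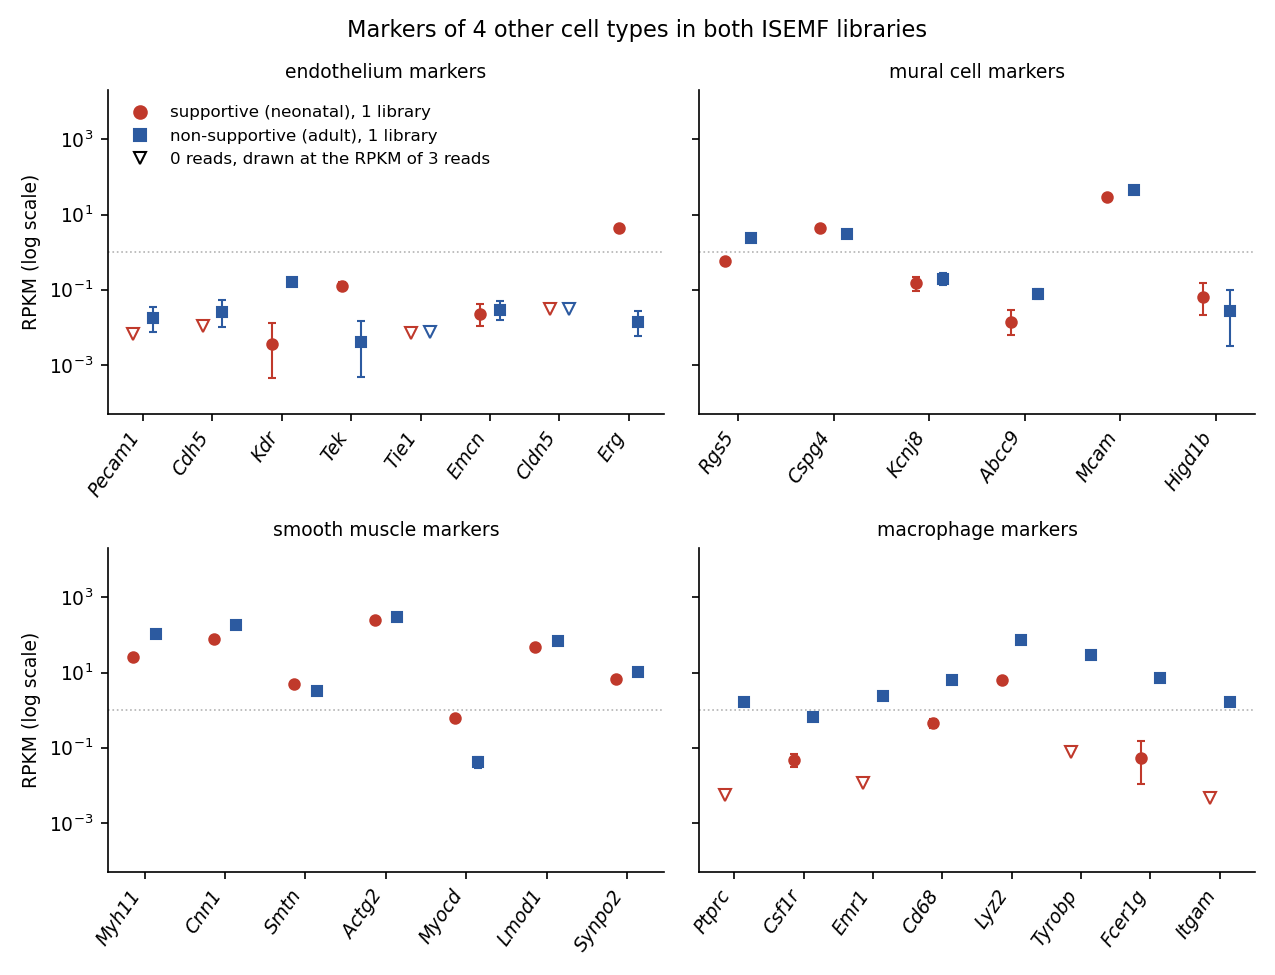
RPKM on a log scale of endothelial, mural cell, smooth muscle and macrophage markers in the supportive (red circles) and non-supportive (blue squares) library, with 95% exact Poisson bars and open triangles for 0 reads. Macrophage markers lay lower in supportive cells, and 7 of the 8 endothelial markers lay below an RPKM of 1 in both libraries.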

How the data were processed

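RNA was measured in 1 supportive and 1 non-supportive ISEMF library, grouped by the population named in the labels. The authors made TruSeq libraries from mRNA and sequenced single-end reads. Alignment to mm9 used TopHat (TopHat2 2.0.4 in the submitters' processing notes) with Ensembl genes, and HTSeq 0.5.4p3 counted unique hits. The deposited counts are whole reads per gene, not normalized. The deposited RPKM values are those counts per exon length and library size, with library sizes of 71463423 and 69449374 reads that hold more than the reads on genes (50674472 and 49615497). The deposited exon length (a column of another unit) is the authors' value. The authors' fold change and DESeq p-value columns and a table of 209 Wnt pathway genes were not used.

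A pseudocount of 0.1 was added to RPKM before taking log2 ratios, and differences were counted at 2-fold where the RPKM was 1 or more in either library. Intervals are at 95%. A count of 0 was read as allowing 3 reads. With 1 library per population, no test of the populations was run, and edgeR 4.0.16 in R 4.3.3 served only for TMM factors. The members and lists were chosen with earlier results of these data known. Named genes are the 10 members, the genes past 2-fold and the highest mean RPKM of each pathway list, and, of each marker list, those with an RPKM of at least 1 or the highest. Rbpj, Nrarp, Hes7, Dtx4, Myc, Cdkn1a, Bcl2 and the listed genes given under an RPKM of 1 were named after their values were seen. Of the 81 pathway genes, 2 were matched by an older symbol. All 37309 gene identifiers were in GENCODE vM1 (Ensembl 65, mm9), which gave coordinates, and 3 of the 10 members had the same exon length there as deposited. Promoter windows came from RefSeq (GRCm38.p6), for letters only. The alternatives were pseudocounts, scalings, minimum levels, thresholds, transcript length and an annotation-based gene list. Scripts were tested on simulated data and run with scipy 1.17.1, pandas 2.3.3, numpy 2.4.6 and matplotlib 3.10.9 under Python 3.11.15.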

Additional observations from a re-analysis of the deposited data

How the results depend on the processing

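No paired analysis was possible because there was 1 library per population and the labels carry no replicate numbers, and for the same reason no replicate could be left out. No log2 ratio of the 9 Notch genes with reads (all but Dll4) changed sign under any alternative. Each of 63 values under alternatives was set against the mean reach of the gene's counting interval to either side, on the log2 scale. Of these, 50 differed from the main value by less than that reach and 13 by more. Whether a value lay inside the interval, which has nothing added to the RPKM, was not asked. Notch3 ranged from 1.55 to 3.91, Notch1 from 0.42 to 2.50 and Jag1 from -1.35 to -1.24, the first 2 by the pseudocount. Centring, TMM factors (0.984 and 1.02), median-of-ratios size factors and leaving out mitochondrial genes changed neither count by over 1.5 times. With a pseudocount of 1, 8 pathway genes were past 2-fold, 6 higher, and 1199 of all 10086 genes (11.9%). With a minimum RPKM of 5, 1 Notch gene (Jag1, 0 higher) and 7 pathway genes (5 higher) were past it. Of all 5061 genes at that minimum, 878 were past it (17.3%). With no minimum, 2 Notch genes were higher (Notch1 and Notch3), and 3660 of all 37309 genes were past 2-fold (9.81%). At 4-fold, 1 Notch gene (0 lower) and 4 pathway genes (4 higher, 0 lower) were past it, and 659 of all 10086 genes (6.53%). Where the interval only had to leave out 1, the counts were 5 Notch genes (4 higher) and 48 pathway genes (24 higher, 24 lower). Of all 10086 genes, 8303 met that rule (82.3%). A list added after seeing the data held the genes beyond the 10 that carry the pathway term in the deposited annotation. Of these, 19 were past 2-fold, 13 higher and 6 lower. Fewer genes tested or a looser rule makes these counts differ by construction. Depth limits Jag2, Dll1 and Dll4, and the age of the mice, the isolation and the culture cannot be told apart.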

Other observations

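The deposited annotation gives the term Notch signaling pathway to 92 genes, the 10 Notch genes included. Of the 92, 50 reached an RPKM of 1 in either library, 14 were over 2-fold higher in supportive ISEMFs and 7 over 2-fold lower, 42.0% past 2-fold beside 18.3% of all genes that reached that level. The genes of this group were chosen after their values were seen. Of the 40 that are on none of the lists above, 20 reached an RPKM of 1, 7 were higher and 6 lower (65% past 2-fold). The higher genes included the forkhead factors Foxc1 (1.41 RPKM in supportive and 0.274 RPKM in non-supportive ISEMFs), Foxc2 (7.02 and 3.04 RPKM) and Foxs1 (5.48 and 1.46 RPKM), and the matrix gene Postn (85.1 and 41.6 RPKM). The others were Chac1, Gmds and Il6st. The lower genes included Cdk6, a cell cycle kinase, at 2.48 and 46.9 RPKM, 18.9-fold lower (17.7 to 20.2), Fgf10, a mesenchymal growth factor, at 10.3 and 27.2 RPKM, and Eya1, Gata2 and Nfkbia.

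Erg, an endothelial transcription factor, had 2761 reads in supportive ISEMFs (4.50 RPKM) and 8 in non-supportive ISEMFs (0.0134 RPKM), as against 65 and 2 reads of Tek, 2 and 88 of Kdr, 0 and 8 of Pecam1 and 0 and 7 of Cdh5. Myocd, a smooth muscle coactivator, had 591 and 37 reads (0.635 and 0.0409 RPKM), higher in the culture where Myh11 and Cnn1 were lower.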
